A study of Mus musculus with 3 samples.

Results

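The septin family of mouse platelets was described from RNA sequencing of 3 libraries of 1 group, platelets purified from blood of male BALB/c mice, 20 weeks old, of Nxf1 wild type genotype. Septins were chosen by name: 10 family members were looked up by Entrez number in the deposited count tables, which list 9822 genes, and 8 were present. The tables hold no row for Septin4 or Septin10, nor for Septin3, Septin12 and Septin14, which were looked up as well. No gene of the tables was below 0.238 CPM (counts after each library is scaled to 1000000 in all) in its best library, so the tables had been filtered, and a septin that is not listed has no value here. Each library has a batch number of its own, so batch and sample cannot be told apart, and nothing says that each came from a separate mouse; errors and p-values measure only how these samples differ, and that may be technical.

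Septins are GTP-binding proteins that join end to end into rods, and the rods into filaments and rings on membranes, actin bundles and microtubules. A rod takes its subunits from subgroups named after human SEPT2, SEPT6, SEPT7 and SEPT3, and members of a subgroup can stand in for each other at the same place. In platelets septins are known around granules, and mouse Septin5 is known as a brake on granule release through its binding of syntaxins.

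All family members bind GTP through a P-loop, the stretch that wraps around the nucleotide's phosphates, and the coding sequence of that stretch is shown because it is what the 8 listed genes share and where they can be told apart at the base level. The sequences are the coding strand of GENCODE M21 transcripts (GRCm38, the assembly of mm10), 48 bases each, 5′ to 3′, with the 8 P-loop codons in capitals.
Septin9: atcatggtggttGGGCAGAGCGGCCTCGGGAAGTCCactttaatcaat
Septin7: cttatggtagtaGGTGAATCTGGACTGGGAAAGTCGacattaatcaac
Septin1: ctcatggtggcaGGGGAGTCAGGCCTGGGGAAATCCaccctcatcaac
Septin2: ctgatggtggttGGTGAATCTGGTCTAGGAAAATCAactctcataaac
Septin5: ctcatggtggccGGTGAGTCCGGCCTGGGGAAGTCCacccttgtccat
Septin11: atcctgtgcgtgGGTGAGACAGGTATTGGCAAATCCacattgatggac
Septin6: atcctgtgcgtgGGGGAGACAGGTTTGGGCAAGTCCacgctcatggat
Septin8: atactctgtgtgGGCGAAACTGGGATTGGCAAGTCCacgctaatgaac
In each of the 8 genes the stretch is spliced, with the exon junction after base 13, that is, after the first base of the first P-loop codon. With the intron included, the stretches lie at chr11:117351608-117352183 (+ strand) for Septin9, chr9:25265484-25277578 (+ strand) for Septin7, chr7:127218023-127218153 (- strand) for Septin1 and chr1:93491265-93495613 (+ strand) for Septin2. Those of the other 4 genes lie at chr16:18625221-18625357 (- strand) for Septin5, chr5:93139551-93148421 (+ strand) for Septin11, chrX:36966757-36975075 (- strand) for Septin6 and chr11:53532104-53534467 (+ strand) for Septin8. Set against the Septin7 stretch, that of Septin2 had the same base at 37 of 48 positions, Septin1 at 35, Septin5 at 33, Septin9 at 32, Septin8 at 30, Septin11 at 29 and Septin6 at 27. The P-loop begins at codon 303 of 583 in Septin9, whose longest coding sequence has a long stretch ahead of the GTP-binding part, and at codons 32 to 57 in the other 7 genes.

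Over whole coding sequences, members of the SEPT6 subgroup were the closest relatives, with 72.7% to 75.1% of aligned bases identical in 3 pairs. The 3 pairs within the SEPT2 subgroup had 64.9% to 68.9%, and 22 pairs from different subgroups had 57.4% to 66.5%. No stretch of 50 bases in 7 of the 8 transcripts (the one of each gene nearest in length to the deposited gene length) occurred in a transcript of any other gene in GENCODE M21, on either strand. Over all annotated transcripts of these 7 genes, exons of Septin6 share 308 bases with Gm15008, those of Septin7 share 245 with the processed pseudogene Gm48272, and those of Septin1 share 70 with Zfp553, each on the other strand. Septin5 was the exception among the transcripts searched, with 71.5% of its 50-base stretches also in Gp1bb or in Gm49601, an annotated gene that spans both. Gm49601, which is not among the listed genes, held 45.5% of the Septin5 stretches.

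Of the 8 listed septins, 8 reached 1 CPM or more in all 3 libraries, where 77.7% of all listed genes did, and 6 reached 5 CPM, where 40.7% of all listed genes did. Together they gave 15501, 15143 and 15924 counts in replicates 1, 2 and 3, out of 26974129, 25189231 and 26111636. The family's share of counts was 0.0575% in replicate 1, with an exact 95% binomial (Clopper-Pearson) interval of 0.0566% to 0.0584%. It was 0.0601% in replicate 2 (interval 0.0592% to 0.0611%), and replicate 3 had 0.0610% (interval 0.0600% to 0.0619%). The intervals reflect counting error alone. The mean share was 0.0595% ± 0.00183 (SD, n = 3). By reads, Septin9 alone made up 51.2% ± 1.66 of the family and Septin7 22.5% ± 0.169 (SD, n = 3).

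**Figure D1:**
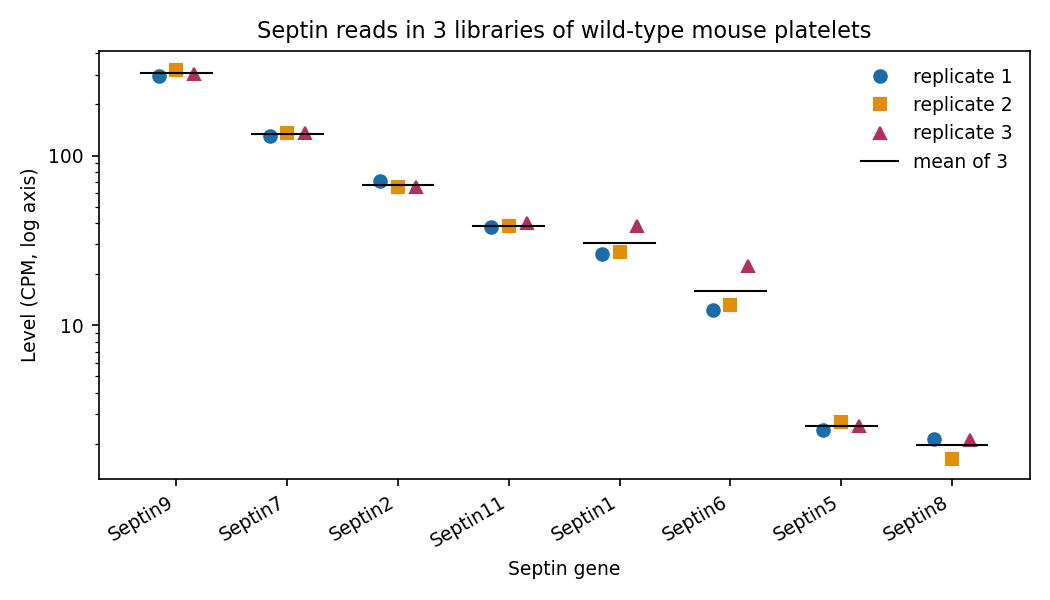
Level of each listed septin in CPM on a log axis, 1 point per library and a line at the mean of 3. Septin9 lies highest at 293 to 318 CPM and Septin8 lowest at 1.63 to 2.15 CPM; replicate 3 stands above the other libraries for Septin1 and Septin6.

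Septin9, a SEPT3-type subunit that also binds microtubules, was the highest septin (Entrez gene 53860, chromosome 11, 117199661 to 117362325). Replicates 1, 2 and 3 had 293, 318 and 303 CPM, or 7895, 8016 and 7906 counts. The 3 libraries lay close together in CPM on plain totals, with a coefficient of variation of 4.22%, and the gene ranked 340 of 9822 by CPM. Scaled to gene length, its level was 71.4 ± 3.02 RPKM (CPM per 1000 bases of the deposited gene length; SD, n = 3).

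Septin7, the one member of its subgroup and a subunit known to be needed for rods, came next (Entrez gene 235072, chromosome 9, 25251991 to 25308571). It had 130, 135 and 136 CPM in replicates 1, 2 and 3, the smallest relative spread of the family on plain totals at 2.34%. Its level per length was 52.8 ± 1.24 RPKM (SD, n = 3). Septin9 exceeded Septin7 per length in all 3 libraries, at a log2 ratio of RPKM of 0.44 ± 0.05 (SD, n = 3). The size of that gap followed the gene length used: it was 0.57 with the longest protein-coding GENCODE transcript of each gene, and 0.97 with the median one. No p is given for this or any other ratio of genes, because with 3 libraries the smallest p of an exact sign-flip test (two-sided) is 0.25.

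In the SEPT2 subgroup, Septin2 and Septin1 had similar levels per length. Septin2, known for its binding of non-muscle myosin, had 70.9, 65.0 and 65.4 CPM in replicates 1, 2 and 3, or 20.1 ± 0.985 RPKM (chromosome 1, 93478981 to 93509733). Septin1, known from lymphocytes, had 26.3, 27.0 and 38.5 CPM, or 21.1 ± 4.72 RPKM (SD, n = 3; chromosome 7, 127212709 to 127232985). Septin1 was below Septin2 per length in replicates 1 and 2 and above it in replicate 3, and the mean log2 ratio of their RPKM, 0.05 ± 0.35, was smaller than its SD. With the median transcript length, which is short for Septin2 because many of its 13 protein-coding transcripts are partial, Septin2 was at 88.7 RPKM and Septin1 at 29.2 RPKM.

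Septin5, the third listed member of that subgroup, was scarce. Replicates 1, 2 and 3 had 2.41, 2.70 and 2.57 CPM, which rest on 65, 68 and 67 counts, or 1.20 ± 0.0682 RPKM (SD, n = 3). Per length, 45.2% of listed genes lay below it. Its last exon overlaps Gp1bb, and these values and rank would be too low if reads in the overlap were dropped or given to Gp1bb.

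The SEPT6 subgroup, which fills the place between the SEPT2 and SEPT7 types, was led by Septin11 (chromosome 5, 93090995 to 93182368). Septin11 had 37.7, 38.5 and 39.9 CPM in replicates 1, 2 and 3, or 7.72 ± 0.219 RPKM (SD, n = 3). Septin6 (chromosome X, 36911272 to 36990036) had 12.2, 13.2 and 22.4 CPM, or 2.38 ± 0.839 RPKM, with replicate 3 well above the others. Septin8, known in neurons as a partner of the vesicle protein VAMP2 (chromosome 11, 53519397 to 53549605), had 2.15, 1.63 and 2.11 CPM (58, 41 and 55 counts), or 0.424 ± 0.0626 RPKM. Septin11 gave 3.36 times the level per length of Septin6 and 17.7 times that of Septin8 (log2 ratios of RPKM 1.75 ± 0.43 and 4.14 ± 0.21; SD, n = 3), in the same direction in all 3 libraries. The deposited Septin6 length, 6698 bases, exceeds its longest protein-coding GENCODE transcript, 4673 bases. With the longest transcripts Septin11 was at 7.69 RPKM and Septin6 at 3.41 RPKM, and with the median ones at 21.6 and 6.01 RPKM.

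By mean RPKM the order was Septin9, Septin7, Septin1, Septin2, Septin11, Septin6, Septin5 and Septin8. Of the 7 neighbouring pairs in that order, 6 had a log2 ratio of the same sign in all 3 libraries and larger than its SD; Septin1 and Septin2 did not. The closest of the 6 by size was Septin9 over Septin7, and the others ran from 0.90 ± 0.47 (Septin6 over Septin5) to 1.75 ± 0.43 (Septin11 over Septin6) in log2 RPKM. The gap of Septin6 over Septin5 rests on the deposited lengths of both genes. With the longest GENCODE transcripts they lay further apart, Septin6 at 3.41 RPKM and Septin5 at 0.696 RPKM. So they did with the median ones, at 6.01 and 1.48 RPKM. Without the bases shared with Gp1bb, Septin5 was at 1.65 ± 0.0936 RPKM, nearer to Septin6 at 2.38 ± 0.839 RPKM. Whether the pair is still apart with that length was not tested. For comparison, the 8 listed septins had a median of 13.9 RPKM and all listed genes 1.49 RPKM.

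**Figure D2:**
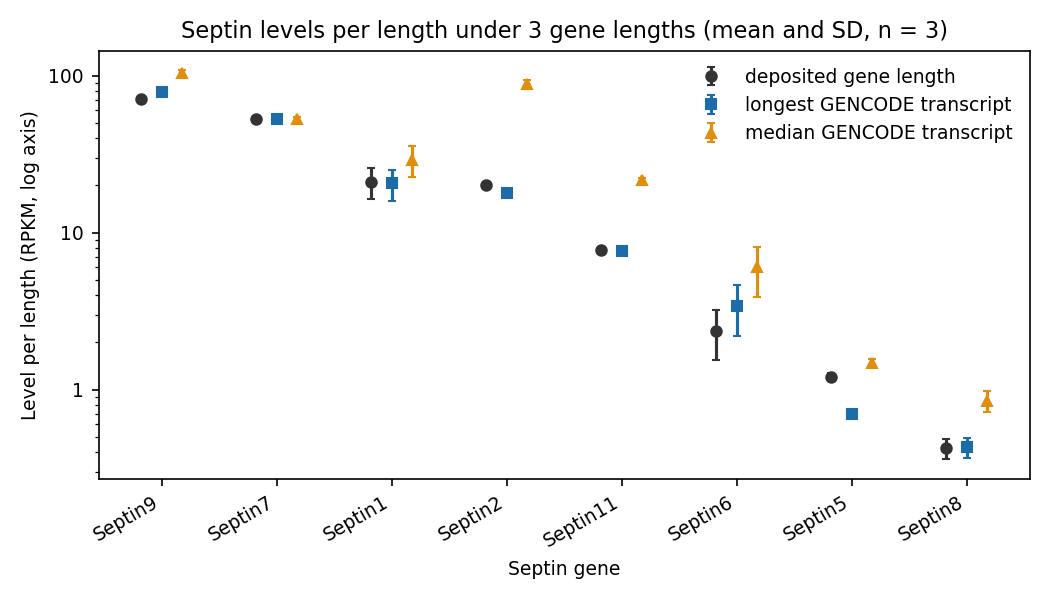
Level per length of each septin (RPKM on a log axis, mean and SD, n = 3) with the deposited gene length, the longest and the median protein-coding GENCODE transcript. The order is the same with the first 2 lengths; with the median length Septin2 moves to 88.7 RPKM, above Septin7 at 53.0 RPKM.

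Summed by subgroup, the SEPT3 type, here Septin9 alone, held 40.4% ± 1.74 of the family's RPKM and the SEPT7 type 29.8% ± 0.506 (SD, n = 3). The SEPT2 type held 23.9% ± 1.77 and the SEPT6 type 5.93% ± 0.405, the lowest sum although 3 of its genes were listed. The SEPT6 type was also lowest with the longest transcripts (6.32%) and with the median ones (9.32%). With the median transcripts the SEPT2 type came first, at 39.2%, against 34.1% for the SEPT3 type. Counts are per gene, so isoforms of a septin, such as the long and short forms of Septin9, cannot be told apart.

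Septin5 lies next to Gp1bb, which encodes a chain of the platelet receptor for von Willebrand factor, and the pair overlap. Septin5 (Entrez gene 18951) spans 18621811 to 18629938 of chromosome 16 and Gp1bb (Entrez gene 14724) 18620319 to 18622403, both on the minus strand, so Gp1bb follows Septin5. The main GENCODE transcripts, of 2143 and 2085 bases, share 593 exonic bases (18621811 to 18622403), all in the last Septin5 exon. That is 27.7% of the Septin5 transcript and 28.4% of the Gp1bb one. Over all GENCODE transcripts, which include a Septin5 form that runs on through Gp1bb, the shared part is 1902 bases, or 48.6% of the Septin5 exonic bases. Because the genes share a strand, strand-specific reads cannot separate them there, and how reads in the shared part were counted is not stated in the labels or headers.

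**Figure D3:**
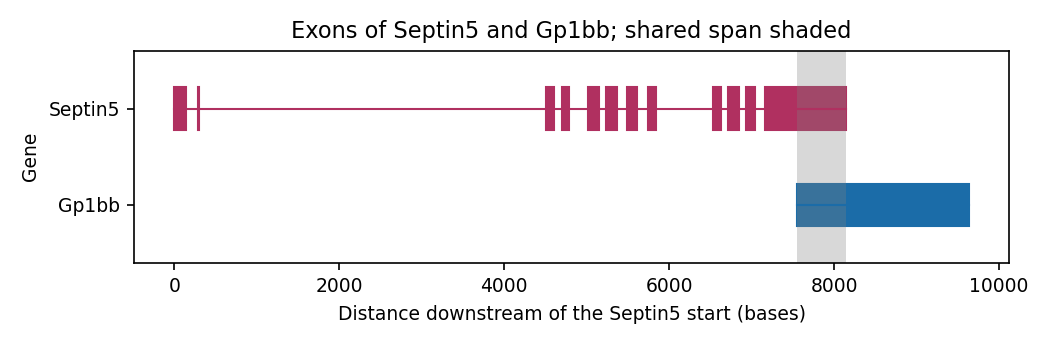
Exons of the main Septin5 and Gp1bb transcripts (boxes) by distance in bases downstream of the Septin5 start; the shaded span marks the 593 shared bases. The overlap covers the end of the last Septin5 exon and the beginning of Gp1bb.

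Septin5 gave far fewer reads than its neighbour, 2.56 ± 0.145 CPM against 827 ± 74.6 CPM for Gp1bb (SD, n = 3). The log2 ratio of Septin5 to Gp1bb counts was -8.27, -8.17 and -8.43 in replicates 1, 2 and 3, a mean of -8.29 ± 0.13, or 313 times fewer reads. Scaled to the deposited gene lengths, which are nearly equal, the log2 ratio of Septin5 to Gp1bb was -8.32. With the shared bases left out of both lengths, an alternative added after seeing the data, it was -8.35, from 1.65 ± 0.0936 RPKM for Septin5 and 554 ± 49.99 RPKM for Gp1bb. If reads in the overlap were left out of both genes, the levels of both are too low. The length without the shared main-transcript bases allows for that only in part, and with it the log2 ratio went from -8.32 to -8.35. If those reads were given to Gp1bb, the Septin5 level and its ratio to Gp1bb are too low. Whether any of the 65 to 68 Septin5 counts per library came from the Gp1bb transcript, which had 20155 to 23781, was not tested. Other listed genes with a span or exons overlapping a septin were Ccni with Septin11 (100.4 ± 11.7 CPM), Mylpf with Septin1 (3.93 ± 0.358 CPM) and Zfp553 with Septin1 (0.685 ± 0.398 CPM). Of these, Zfp553 shares 70 exonic bases with Septin1 in GENCODE, on the other strand, and the other 2 share none.

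Between libraries, Septin1 and Septin6 were the members that moved most, both upward in replicate 3. Septin6 was 1.76 times, and Septin1 1.45 times, its mean of the other libraries in replicate 3, and the other 6 septins lay between 0.962 and 1.12 times. After TMM scaling (edgeR's correction for composition, with a factor of 1.09 for replicate 3) the values were 1.54 times for Septin6 and 1.26 times for Septin1, and 0.841 to 0.974 times for the other 6. In edgeR's quasi-likelihood fit each gene's spread was tested against that of genes at the same level, with Benjamini-Hochberg adjustment over 8289 genes. In that test 0 of 8 septins were called (smallest adjusted p = 0.982), where 0.229% of all genes tested were. At an unadjusted p under 0.05, 1 of 8 was past the threshold, Septin6 at 0.0295, where 4.29% of all genes were; DESeq2's dispersion outliers included 0 of 8, where 0.591% of all genes were outliers. Shares this small leave 0 of 8 no different from the background, and a missing call does not show that a level was the same.

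Beside that difference, summed markers of B cells and T cells were also higher in replicate 3, in CPM without TMM scaling. The 6 B cell markers, all 6 of them listed and led by Cd79a, summed to 39.9, 43.7 and 77.2 CPM in replicates 1, 2 and 3, or 1.85 times in replicate 3. For T cells 6 of 7 markers were listed (Cd3e was not), and summed to 27.7, 28.3 and 43.6 CPM, or 1.56 times. They were led by Tcf7, at 14.3, 13.5 and 20.1 CPM. Of the 6, 3 reached 1 CPM in all 3 libraries, where 77.7% of all listed genes did. The 3 listed neutrophil markers of 6 summed to 10.6, 16.2 and 19.6 CPM. The 8 platelet and megakaryocyte markers, led by Ppbp, summed to 32984, 34845 and 35300 CPM, close to even. Monocyte and macrophage markers (6 of 6 listed, led by Lyz2) summed to 1304, 1528 and 1381 CPM, and endothelial ones (5 of 6, led by Pecam1, which platelets also express) to 1390, 1446 and 1434 CPM. Natural killer cell markers (4 of 5, led by Nkg7) summed to 6.60, 8.14 and 8.08 CPM, or 1.10 times in replicate 3. Red cell markers (8 of 10, led by Hba-a1) stood high in replicate 1, at 48712 CPM against 5217 and 6803 CPM in replicates 2 and 3, a direction that Septin1 and Septin6 did not share. In such bulk samples more cells of a type and more RNA per cell cannot be told apart. The part of other blood cells in the Septin1 and Septin6 levels was not tested. Without replicate 3 the means were 26.7 CPM for Septin1 and 12.7 CPM for Septin6.

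**Figure D4:**
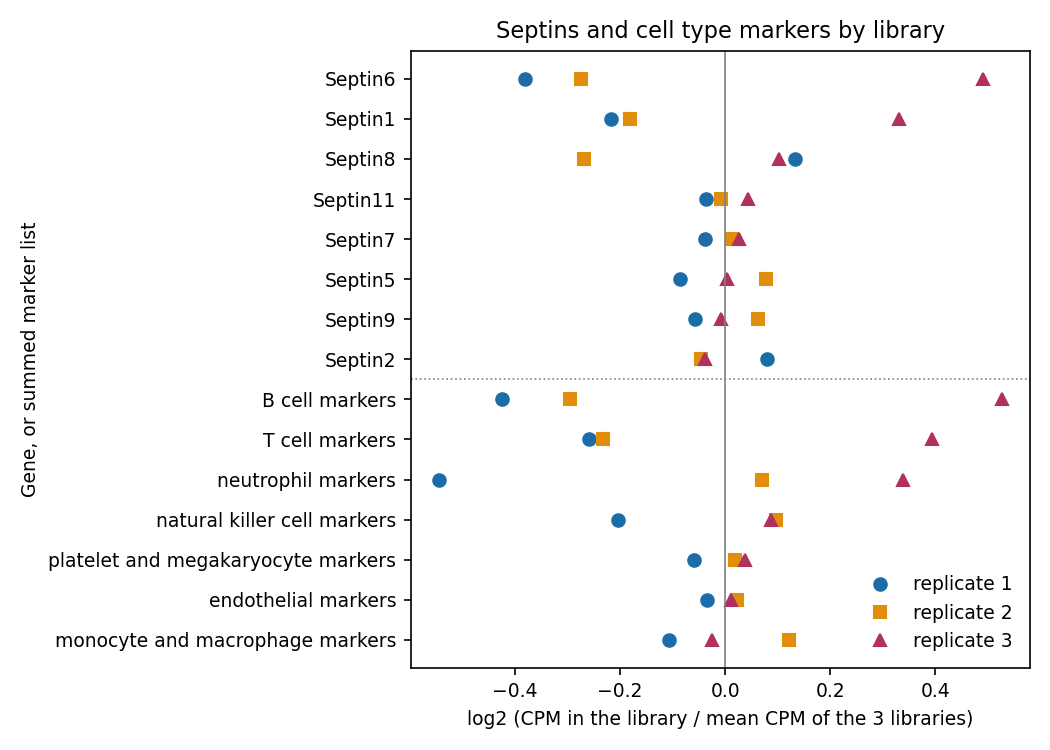
Deviation of each library from the mean of 3 on a log2 scale, for the 8 septins (above the dotted line) and the summed cell type markers (below it); the red cell list is left out because replicate 1 lies far off the scale. In replicate 3, Septin6 and Septin1 lie to the right with the B cell, T cell and neutrophil markers, while the other septins lie near 0.

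Genes of septin partners were uneven, and the highest one exceeded every septin. Of 20 genes on the partner list 13 were listed and 11 reached 1 CPM in all 3 libraries, where 77.7% of all listed genes did. Borg proteins are effectors of the small GTPase Cdc42 that bind septins directly, and 4 of the 5 were listed, Cdc42ep1 being the exception. Cdc42ep5, also called Borg3, had 708, 786 and 760 CPM in replicates 1, 2 and 3, or 867 ± 45.9 RPKM (SD, n = 3), rank 83 of 9822 by RPKM. Septin9, the highest septin, was 12.1 times lower per length than Cdc42ep5 (log2 ratio of RPKM -3.60 ± 0.03, SD, n = 3). The other Borg genes were far lower, with Cdc42ep4 at 2.39 ± 0.518 RPKM, Cdc42ep3 at 0.729 ± 0.226 RPKM and Cdc42ep2 at 0.565 ± 0.113 RPKM; Cdc42ep5 gave 365 times the level per length of Cdc42ep4. Cdc42 itself was at 178 ± 10.5 RPKM, so that Septin7 lay below it at a log2 ratio of RPKM of -1.75 ± 0.05.

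Of the other partner groups, the non-muscle myosin heavy chains were split: Myh9, the platelet form, was at 137 ± 17.1 RPKM and Myh10 at 0.290 ± 0.0243 RPKM, and Myh14 was not listed. Among the SNARE genes, Stx4a was at 24.9 ± 1.17 RPKM, Vamp2 at 7.20 ± 1.11 RPKM and Stx2 at 5.39 ± 0.811 RPKM (SD, n = 3), each higher than Septin5, which is known to bind syntaxins; Stx1a, a syntaxin of neurons, was not listed. Xiap, the inhibitor of apoptosis that the short Septin4 product ARTS is known to bind, was at 8.12 ± 0.315 RPKM, and the ubiquitin ligase genes Siah1b and Siah1a were at 0.700 ± 0.0986 and 0.257 ± 0.141 RPKM. None of the 4 scaffold genes Anln, Rtkn, Rtkn2 and Cit, of which anillin and citron kinase are known from the dividing cell's contractile ring, had a row in the tables.

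**Figure D5:**
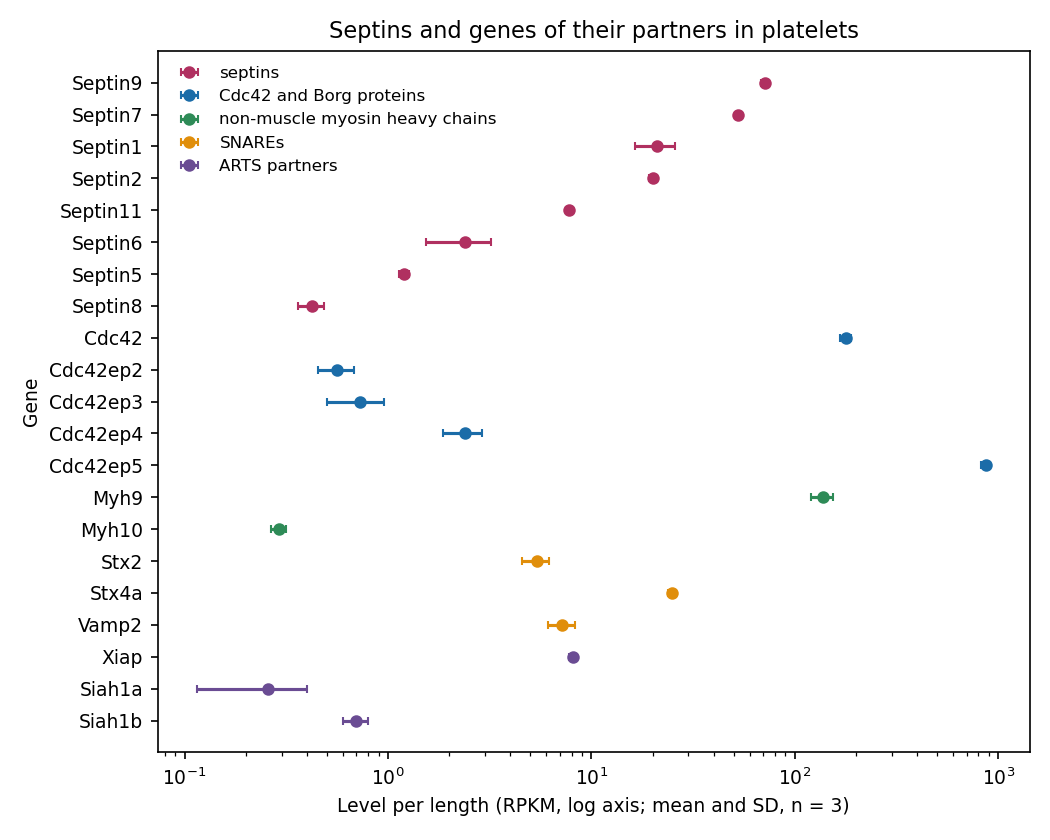
Level per length (RPKM on a log axis, mean and SD, n = 3) of the 8 septins and the 13 listed partner genes, coloured by group. Cdc42ep5 at 867 RPKM lies to the right of every septin, the other Borg genes lie among the lower septins, and Myh10 and Siah1a lie below Septin8.

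The genes whose level per length ran closest to each of the 3 highest septins over the 3 libraries were found by the root mean square difference of log2(RPKM + 0.1) among 8125 genes. Nearest to Septin9 were 4833439L19Rik (0.0559), Mink1 (0.0588) and Cd7 (0.0703), at means of 73.9, 71.7 and 74.8 RPKM. Nearest to Septin7 were Pithd1 (0.0360), Dmac1 (0.0412) and Gm10419 (0.0464), at 53.7, 51.5 and 54.3 RPKM. Nearest to Septin1 were H2-Eb1 (0.0551), Rpl14 (0.0882) and Csk (0.106). H2-Eb1, a class II histocompatibility gene, had 17.8, 17.6 and 27.3 RPKM in replicates 1, 2 and 3. Rpl14 had 17.8, 18.3 and 23.9 RPKM, and Csk 17.2, 17.0 and 24.5 RPKM. All were highest in replicate 3 as Septin1 was, which follows from picking them by likeness to it over the same libraries. With 3 libraries this measure mostly ranks genes by level.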

How the data were processed

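Platelet RNA, isolated with a Norgen kit and made into Illumina TruSeq RNA v2 libraries per the labels' protocols, was sequenced in 3 libraries of 1 group. Each library has a table that the authors deposited, with a raw read count and a gene length for every Entrez gene, per the file headers. The submitters' processing notes name mm10 as the build and list edgeR 3.11.5, featureCounts, Subread and CASAVA 1.8.2; for their order and settings, the annotation, strand and reads shared by genes, nothing was stated in the sources used here. A gene model longer than the transcript in use lowers an RPKM.

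Symbols came from the RefSeq gene table for GRCm38.p6, which matched 9636 of 9822 genes and all septins listed. Total counts ranged from 25189231 to 26974129; 3 counts, the limit that a count of 0 allows, are 0.111 to 0.119 CPM. CPM used the plain total of counts. Log2 ratios used a prior count of 2. Spread was tested with edgeR 4.0.16 (R 4.3.3, limma 3.58.1), by an intercept fit with TMM scaling of the genes whose mean reached 1 CPM. The fit had 2 residual degrees of freedom, and spread was set against the trend by the F distribution. The test was also run on simulated data with planted changes, all larger than the replicate 3 shifts of Septin1 and Septin6. That run does not show whether shifts of their size would be called. DESeq2 1.42.0 served as an alternative. Transcript lengths, overlaps and coding stretches came from GENCODE M21, with alignments in Biopython 1.88 and other steps in Python 3.11.15, NumPy 2.4.6, pandas 2.3.3, SciPy 1.17.1 and matplotlib 3.10.9. Named genes were all septins, the genes of the partner list except 1 that is not reported here, overlapping neighbours, the highest gene of each marker list and the 3 nearest in level to each of the 3 highest septins. Members and lists were chosen with earlier results of these data known.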

Additional observations from a re-analysis of the deposited data

How the results depend on the processing

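The count of septins at 1 CPM or more was 8 with each replicate left out, at a minimum of 0.5 CPM, with TMM scaling and by the mean, and 6 at 5 CPM, where Septin5 and Septin8 dropped out. The family's share of counts was 0.0595%, and 0.0799% of a total without mitochondrial ribosomal RNAs and globin genes; leaving out a replicate gave 0.0588% to 0.0606%. The log2 ratio of Septin9 to Septin7 per length was 0.44, with 0.41 to 0.45 when a replicate was left out; it was 0.57 with the longest transcript, 0.97 with the median transcript and 1.19 with no length scaling, so its size, not its direction, rests on the length. Of the 7 neighbouring pairs in the order by RPKM, 7 kept their order with the longest transcript and without replicate 1 or 2. It was 6 with the median transcript, with no length scaling and without replicate 3, where Septin2 stands above Septin1. Pairs that are not neighbours are outside that count. With the median transcript Septin2 was above Septin7 (88.7 against 53.0 RPKM). With no length scaling Septin11 was above Septin1 (38.7 against 30.6 CPM). The neighbouring pairs were not compared again with the Septin5 length that leaves out the bases shared with Gp1bb. Septin5 to Gp1bb stayed between -8.35 and -8.22 in log2 over all alternatives. The test of spread called 0 of 8 septins with plain totals, DESeq2 size factors, no filter, DESeq2's outliers and each replicate left out, and 0 of 6 at a mean of 5 CPM, where 0.0119% to 0.591% of all genes were called. With plain totals 2 of 8 septins had an unadjusted p under 0.05 in edgeR's fit, Septin1 at 0.0479 and Septin6 at 0.0204. With TMM scaling 8 of 8 septin means moved by less than 1 SD. The SD rose from 12.9 to 27.8 CPM for Septin9 and from 3.13 to 8.48 CPM for Septin7. It also rose for Septin2, Septin5 and Septin11, and fell for Septin1, Septin6 and Septin8. After that scaling the relative spread of Septin7 was no longer the smallest of the family. No paired analysis was possible because there is 1 group. Counts of 41 to 68 for Septin5 and Septin8 limit their precision.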
